A study of Mus musculus with 15 samples.

Results

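Forebrains of wild-type mice (genotype WT) whose libraries were rich in macrophage transcripts were set against treated forebrains whose libraries were poor in them, and the question was which genes moved alike in 2 separate pairs of treatments. The macrophage-rich pool held the 3 libraries called PLX3X_CD30 and the 3 called IR_BMT. The macrophage-poor pool held the 3 libraries called PLX1X and the 3 called PLX3X_CD0. These are 12 of the 15 libraries of the series, and the 3 untreated libraries (NT) were left out of every fit. Each library was made from RNA of frozen forebrain, so each value is a sum over all brain cells. Treatment names are given here as the labels spell them: PLX, CD0, CD30 and IR-BMT are not written out there, the PLX3X_CD30 libraries carry the bare title PLX treated with the 3x and CD30 in the library name alone, and the IR_BMT libraries, titled IR-BMT treated, are named with IR alone. Doses, ages, dissection details and whether a group's libraries are separate animals are not in the sources used here, so p-values measure the spread between libraries, which may be technical. The pools differ in more than macrophages, since each rich group also had its own treatment. The first pair, PLX3X_CD30 against PLX3X_CD0, is called the CD30 pair below, and IR_BMT against PLX1X is called the IR pair. The pairs share no library.

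Microglia are the resident macrophages of the brain. They depend on signalling through the receptor CSF1R, and drugs that block it remove most of them. An emptied niche can be refilled by surviving microglia or by cells from bone marrow, which become macrophages of the brain but keep an expression profile of their own. Macrophages at the border of the brain, along vessels and in the meninges, form another population with its own markers. In bulk tissue, fewer cells of a type and less RNA per cell cannot be told apart.

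The pools were chosen for their macrophage transcripts, so those transcripts are described here without a test. Csf1r had 54.9, 53.1 and 54.9 CPM (read counts per library size, scaled by TMM) in PLX3X_CD30 and 48.3, 46.1 and 46.2 CPM in IR_BMT, against 8.80, 13.3 and 4.50 CPM in PLX1X and 5.29, 10.5 and 3.53 CPM in PLX3X_CD0. P2ry12, a purinergic receptor of resting microglia, had 13.1, 11.6 and 10.4 CPM in PLX3X_CD30 and 14.4, 13.4 and 11.6 CPM in IR_BMT, against 1.72, 2.79 and 1.47 CPM in PLX1X and 1.60, 2.54 and 1.32 CPM in PLX3X_CD0. Both genes were higher in all 6 libraries of the rich pool than in any of the poor pool. Rich and poor are relative to each other. In a normalization over all 15 libraries, Csf1r averaged 165 CPM in NT, against 55 CPM in PLX3X_CD30 and 47.4 CPM in IR_BMT. P2ry12 averaged 40.2 CPM in NT, against 11.85 and 13.3 CPM. Not all myeloid genes stood so: Lyz2, described below, averaged 14.0 CPM in NT, against 23.7 and 14.5 CPM. Within each poor group, replicate 2 held the most Csf1r and P2ry12.

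Sequences upstream of genes that stood higher in both pairs were searched for GAGGAAG, the core of the site bound by PU.1, the factor that sets the macrophage programme. The 4 stretches below show windows with and without the motif, from genes whose levels are given in the text, and were picked with the matches known, so 3 of 4 is no rate: Fcrls, a microglial Fc receptor-like gene (chr3:87263525-87263774, minus strand), Itgam, the CD11b integrin (chr7:128062390-128062639, plus strand), Mrc1, the mannose receptor of border macrophages (chr2:14229164-14229413, plus strand), and Pld4, a nuclease of myeloid lysosomes (chr12:112760405-112760654, plus strand). Each is the 250 bases before the RefSeq transcription start on build GRCm38.p6, written 5′ to 3′ along the gene, and capitals mark the motif on either strand.
Fcrls: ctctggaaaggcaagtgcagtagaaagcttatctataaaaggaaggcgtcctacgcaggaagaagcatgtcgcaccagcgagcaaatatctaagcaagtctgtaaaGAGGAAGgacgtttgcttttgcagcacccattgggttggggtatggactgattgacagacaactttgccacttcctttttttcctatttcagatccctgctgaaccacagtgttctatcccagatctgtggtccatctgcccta
Itgam: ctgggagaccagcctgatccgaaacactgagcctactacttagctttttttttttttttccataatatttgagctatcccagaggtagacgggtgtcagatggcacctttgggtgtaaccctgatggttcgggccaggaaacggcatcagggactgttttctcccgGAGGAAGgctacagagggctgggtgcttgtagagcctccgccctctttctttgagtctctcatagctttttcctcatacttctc
Mrc1: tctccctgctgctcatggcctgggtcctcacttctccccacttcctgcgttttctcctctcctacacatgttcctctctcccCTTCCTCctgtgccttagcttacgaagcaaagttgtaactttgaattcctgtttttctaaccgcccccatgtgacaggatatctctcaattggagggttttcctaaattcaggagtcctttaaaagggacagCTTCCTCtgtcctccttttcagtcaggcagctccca
Pld4: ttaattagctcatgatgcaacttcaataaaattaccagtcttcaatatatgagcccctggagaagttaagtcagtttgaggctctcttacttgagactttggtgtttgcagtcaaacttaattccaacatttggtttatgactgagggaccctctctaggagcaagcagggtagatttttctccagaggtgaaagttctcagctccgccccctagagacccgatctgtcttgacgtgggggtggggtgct
Fcrls and Itgam hold 1 match each, Mrc1 holds 2 and Pld4 holds none. Over all genes tested that had a promoter in the table, 1402 of 13215 held the motif in this window (10.6%). The share was 22 of 71 (31.0%) for members of the myeloid lists that were higher in both pairs, 19 of 164 (11.6%) for the other genes higher in both, 9 of 40 (22.5%) for those of them at least 2-fold higher in each pair, and 10 of 117 (8.55%) for genes lower in both. The upstream window of P2ry12 holds no match. A match is a run of letters and not a shown binding site.

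Total counts were 33304212 to 39549891 in the rich pool and 41397164 to 54801136 in the poor pool, so every rich library was shallower than every poor one. Drawing all libraries down to equal depth left 436 genes changed alike in both pairs, against 471 at full depth. Choroid plexus transcripts stood apart in 2 libraries: the summed level of 13 choroid plexus genes was 1288 CPM in IR_BMT replicate 1 and 3524 CPM in PLX3X_CD0 replicate 1, against 340 to 406 CPM in the other 10. Without these 2 libraries, 462 genes changed alike. Replicates of a group differed with a chi-square per degree of freedom of at least 3.94, where each count is taken as an independent read. Of the counts from 1 to 4, 70.6% to 74.7% per library were even, so both mates of a read pair may have been counted, which would make that chi-square too large and floors set in counts too low.

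Of 21138 genes tested with edgeR's quasi-likelihood test at a Benjamini-Hochberg adjusted p of 0.05, 1366 (6.46%) passed in the CD30 pair and 7194 (34%) in the IR pair. In the CD30 pair 601 genes were higher (2.84%) and 765 lower (3.62%), and in the IR pair 3608 were higher (17.1%) and 3586 lower (17%). Genes called in both pairs went in mixed directions. In the same direction were 471 genes (2.23%), with 322 (1.52%) higher in both and 149 (0.705%) lower in both. In opposite directions were 371 genes (1.76%), with 297 (1.41%) lower in the CD30 pair and higher in the IR pair and 74 (0.35%) the other way. The genes that moved alike were 34.5% of the CD30 pair's calls and 6.55% of the IR pair's calls. With both pairs pooled, 5426 genes passed (25.7%), 2624 higher (12.4%) and 2802 lower (13.3%), of which 4098 had passed in the IR pair alone.

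**Figure D1:**
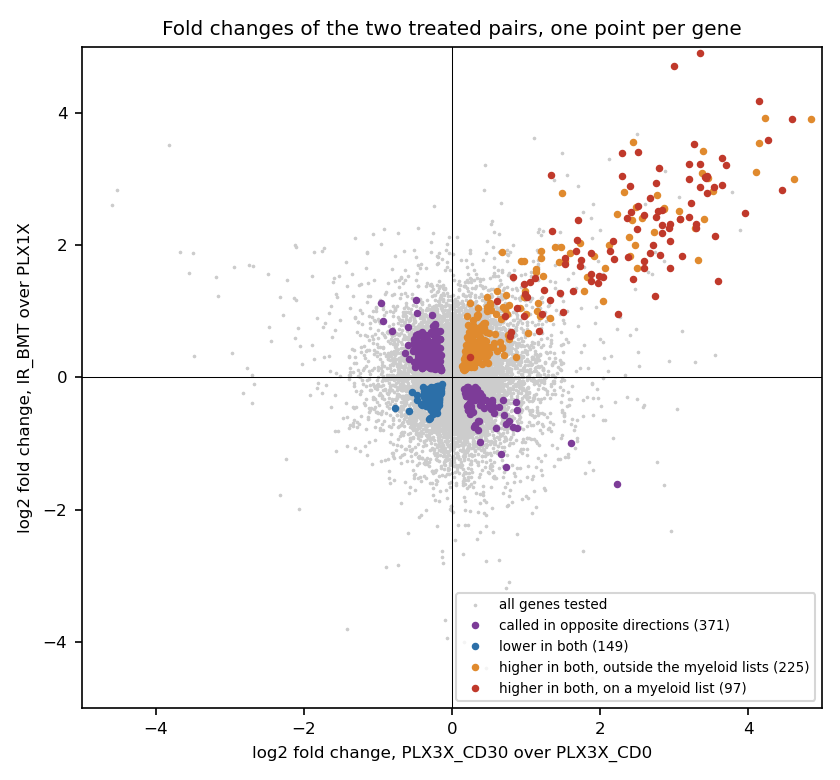
Log2 fold change of each gene in PLX3X_CD30 over PLX3X_CD0 (x axis) and in IR_BMT over PLX1X (y axis), coloured by whether both pairs called it. Genes of the myeloid lists run along the upper diagonal, the 149 genes lower in both sit close to the origin, and 14 genes lie outside the axes.

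The 2 directions differed in size. Of the 322 genes higher in both pairs, 134 were at least 2-fold higher in each pair, and 97 stood on a myeloid list. None of the 149 genes lower in both pairs was 2-fold lower in each. They are protein-coding genes, all 149 of them, and their median change was -0.24 in the CD30 pair and -0.25 in the IR pair on the log2 scale. The libraries of the pools did not overlap for 270 of the 322 and for 115 of the 149, where 2.44% of all genes had every rich library above every poor one and 2.21% had every one below.

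The myeloid lists make up most of the large differences, and are described here. Of 40 genes shared by microglia and other macrophages, 38 were abundant enough to be tested, 33 had all 6 rich libraries above all 6 poor ones, and the median log2 difference was 2.47 in the CD30 pair and 2.29 in the IR pair. The median over all genes tested was 0.00 in the CD30 pair and 0.01 in the IR pair. Summed over this list, levels ran from 354 to 412 CPM in the rich pool, against 40.2 to 102 CPM in the poor pool. Tyrobp, the signalling adaptor of TREM2, had a lowest, median and highest level of 7.65, 8.46 and 9.18 CPM in the rich pool, against 0.399, 0.991 and 1.55 CPM in the poor pool. C1qc, a chain of complement C1q, had 32.6, 32.3 and 34.4 CPM in PLX3X_CD30 and 38.1, 35.0 and 34.8 CPM in IR_BMT, against 4.61, 7.95 and 1.64 CPM in PLX1X and 1.80, 4.87 and 1.27 CPM in PLX3X_CD0. Itgam had 2.6, 2.16 and 1.57 CPM in PLX3X_CD30 and 3.12, 1.98 and 2.28 CPM in IR_BMT, against 0.256, 0.283 and 0.0734 CPM in PLX1X and 0.16, 0.267 and 0.221 CPM in PLX3X_CD0, with no overlap between the pools. Tlr4, the lipopolysaccharide receptor, overlapped between the pools, at 0.648 to 1.54 CPM in the rich pool and 0.367 to 0.993 CPM in the poor pool.

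Microglia-restricted genes were higher in the rich pool than in the poor pool as well, in both of its groups. The median log2 difference of the 13 tested members was 1.64 in the CD30 pair and 2.25 in the IR pair, and 11 had all rich libraries above all poor ones. Fcrls had 9.64, 6.65 and 9.52 CPM in PLX3X_CD30 and 18.7, 17.8 and 16.6 CPM in IR_BMT, against 0.842, 1.24 and 0.832 CPM in PLX1X and 0.599, 0.707 and 0.147 CPM in PLX3X_CD0. Tmem119, a microglial membrane protein, had 20.6, 19.4 and 19.0 CPM in PLX3X_CD30 and 26.8, 23.4 and 22.2 CPM in IR_BMT, against 4.83, 6.60 and 3.72 CPM in PLX1X and 2.62, 5.23 and 2.52 CPM in PLX3X_CD0. Neither gene's pools overlapped. Siglech, a sialic acid-binding lectin of microglia, differed by log2 4.46 ± 0.30 (SE) in the CD30 pair and 2.83 ± 0.27 in the IR pair, and its level was 0.184 to 0.478 CPM in PLX3X_CD0 and 0.538 to 1.44 CPM in PLX1X. The exceptions on the list were Bin1 and Sall1, which overlapped between the pools. Bin1, an endocytic adaptor that other brain cells also express, had 239 to 268 CPM in the rich pool and 218 to 250 CPM in the poor pool.

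Genes of engrafted bone marrow-derived macrophages and of border-associated macrophages stood higher too. Of the bone marrow-derived list, 16 of 18 genes were tested, 8 had pools that did not overlap, and the median log2 difference was 2.47 in the CD30 pair and 1.55 in the IR pair, the same when Ms4a7 is put at its lower bound. Ms4a7, a membrane protein of the MS4A family, had 0.488, 0.206 and 1.06 CPM in PLX3X_CD30 and 0.687, 0.302 and 0.466 CPM in IR_BMT. It had no count in any PLX1X library, so it was at least 7.52-fold higher in IR_BMT at a floor of 3 counts per library, a bound that would be lower if both mates of a pair were counted. It had 0.0599, 0 and 0.0368 CPM in PLX3X_CD0. Lyz2, a lysozyme, had 16.1, 14.9 and 39.1 CPM in PLX3X_CD30 and 13.6, 13.3 and 16 CPM in IR_BMT, against 2.89, 2.44 and 2.59 CPM in PLX1X and 2.40, 3.02 and 2.23 CPM in PLX3X_CD0. PLX3X_CD30 replicate 3 was the highest library for both genes. Clec12a, a lectin receptor on the same list, overlapped between the pools, with 1.22 to 2.34 CPM in the rich pool and 1.61 to 2.23 CPM in the poor pool.

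Among 10 tested border-associated macrophage genes, 5 had pools that did not overlap, and the median log2 difference was 1.21 in the CD30 pair and 2.07 in the IR pair. Mrc1 had 3.03, 1.60 and 2.36 CPM in PLX3X_CD30 and 3.34, 2.47 and 2.90 CPM in IR_BMT, against 0.0183, 0.196 and 0.122 CPM in PLX1X and 0.340, 0.210 and 0.313 CPM in PLX3X_CD0. F13a1, a transglutaminase, differed by log2 3.35 ± 0.25 in the CD30 pair and 4.91 ± 0.29 in the IR pair. For both genes PLX1X lay below PLX3X_CD0, while the 2 rich groups overlapped. Colec12, a scavenger receptor of this list, had 12.3 to 15.5 CPM in the rich pool and 12.6 to 16.4 CPM in the poor pool.

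The 8 tested MHC class II genes, which present antigen, had a median log2 difference of 0.83 in the CD30 pair and 1.01 in the IR pair. Past the threshold and higher in both pairs were 4 of them (Cd74, H2-Aa, H2-Ab1 and H2-Eb1), against 1.52% of all genes. The pools were named from this list among others, so these calls give no separate support. Of the 8 genes, 3 had pools that did not overlap, where 2.44% of all genes had every rich library above every poor one. H2-DMa, which helps load peptides, had 13.8 to 18.1 CPM in the rich pool and 14.9 to 15.4 CPM in the poor pool. Cd74, the invariant chain, had 10.3, 7.32 and 23.4 CPM in PLX3X_CD30 and 12.1, 11.3 and 13.3 CPM in IR_BMT, against 3.97, 5.44 and 4.18 CPM in PLX1X and 3.18, 3.86 and 3.46 CPM in PLX3X_CD0. Without PLX3X_CD30 replicate 3 the log2 difference of Cd74 in the CD30 pair was 1.33 in place of 1.97. The list of disease-associated microglia genes, induced around plaques and myelin debris, hardly separated the pools: its median was 0.14 in each pair, and none of 15 tested members had all rich libraries above all poor ones. Only Ccl6, a chemokine, was past the threshold and higher in both pairs, which gives no separate support, since the pools were named from this list too. Axl, a receptor kinase of that list, had 70.2 to 86.8 CPM in the rich pool and 66.5 to 74.5 CPM in the poor pool.

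Pan-leukocyte genes, which encode surface and cytoskeletal proteins of all white blood cells, had a median log2 difference of 1.79 in the CD30 pair and 1.59 in the IR pair over 52 tested genes, with 40 showing no overlap between the pools. Of the lymphocyte and neutrophil lists, most members were too low to be tested: 4 of 10 B lymphocyte, 3 of 11 T and NK, and 6 of 11 neutrophil genes passed the filter on low counts. None of these changed alike in both pairs. Summed B lymphocyte genes ran from 40 to 42.3 CPM in PLX3X_CD30, against 18.5 to 26.6 CPM in PLX3X_CD0, and from 32.4 to 43.4 CPM in IR_BMT, against 29.4 to 36.5 CPM in PLX1X. Most of that sum was Ighm, the heavy chain of IgM, named after its values were seen, which was called higher in the pooled contrast and in the CD30 pair and not in the IR pair. Summed T and NK genes ran from 34.6 to 50.4 CPM in the rich pool and from 34.5 to 59.8 CPM in the poor pool. Summed neutrophil genes ran from 3.39 to 5.11 CPM in the rich pool and from 2.38 to 5.04 CPM in the poor pool.

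**Figure D2:**
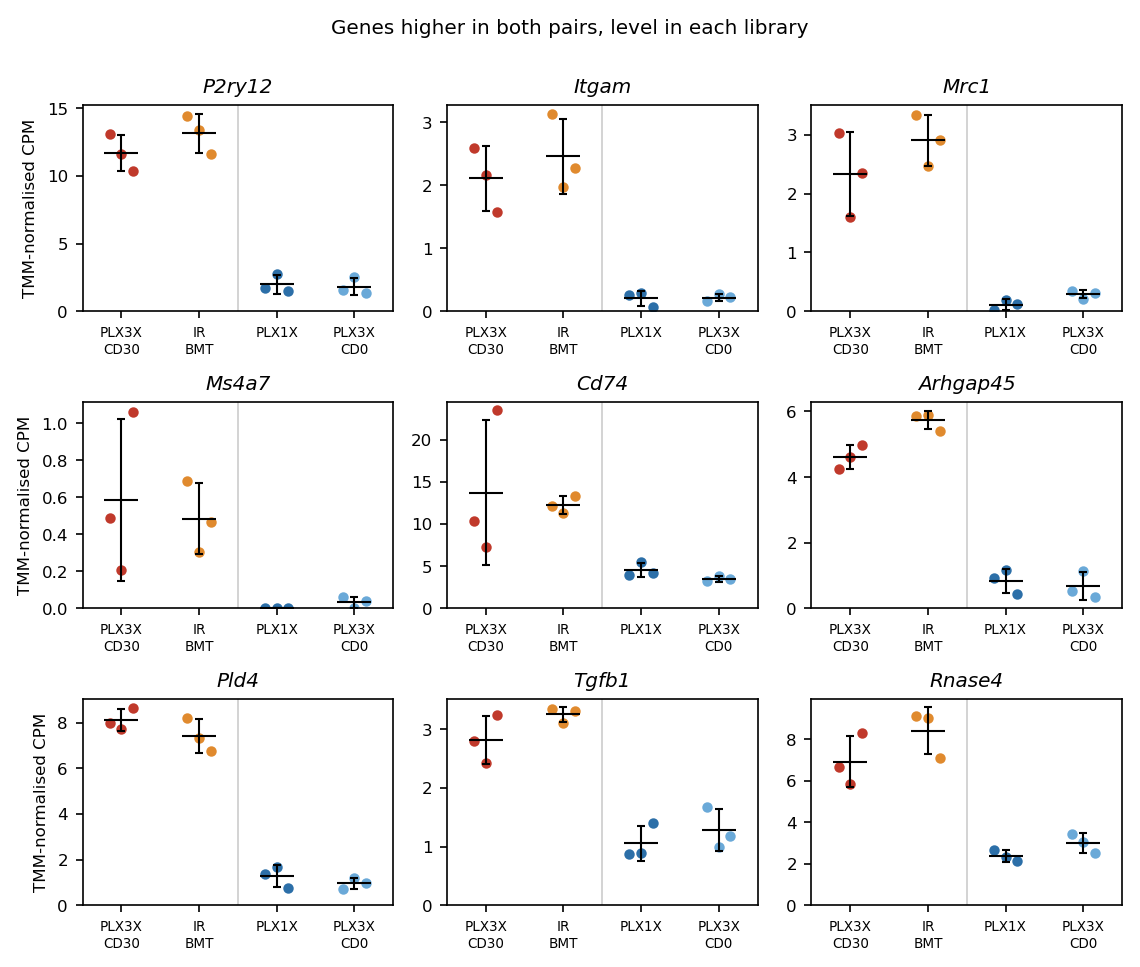
TMM-normalised CPM of 9 genes higher in both pairs, with a point per library and the mean ± SD of 3 libraries per group. The 6 libraries of PLX3X_CD30 and IR_BMT lie above the 6 of PLX1X and PLX3X_CD0 in each panel, and PLX3X_CD30 replicate 3 is the highest library for Ms4a7 and Cd74.

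Of the 322 genes higher in both pairs, 225 were on no myeloid list. The naming rule took the 12 with the largest smaller fold among those with non-overlapping pools and an average log2 CPM of at least 1. Of these 12, all but Ankrd60 are known from white blood cells, the kind of transcript that set the pools, and are given without a p. Arhgap45, a GTPase-activating protein of blood cells (gene at chr10:80016653-80031472, plus strand, mm10), had 4.24, 4.61 and 4.99 CPM in PLX3X_CD30 and 5.87, 5.91 and 5.42 CPM in IR_BMT, against 0.915, 1.15 and 0.440 CPM in PLX1X and 0.519, 1.15 and 0.350 CPM in PLX3X_CD0. Its log2 difference was 2.78 ± 0.35 in the CD30 pair and 2.76 ± 0.34 in the IR pair. Pld4, whose upstream sequence is printed above, had 7.97, 7.70 and 8.64 CPM in PLX3X_CD30 and 8.18, 7.31 and 6.74 CPM in IR_BMT, against 1.37, 1.70 and 0.759 CPM in PLX1X and 0.719, 1.20 and 0.957 CPM in PLX3X_CD0. Vsir, the immune checkpoint VISTA, had a lowest, median and highest level of 11.3, 14.3 and 18.0 CPM in the rich pool, against 3.02, 4.19 and 5.6 CPM in the poor pool.

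Signalling genes were among them. Tgfb1, the growth factor TGF-β1 on which microglial identity depends, had 2.80, 2.42 and 3.24 CPM in PLX3X_CD30 and 3.34, 3.10 and 3.32 CPM in IR_BMT, against 0.878, 0.893 and 1.39 CPM in PLX1X and 1.68, 0.993 and 1.18 CPM in PLX3X_CD0. Tnfrsf1b, the TNF receptor TNFR2, had 3.21, 4.17 and 4.59 CPM as the lowest, median and highest level in the rich pool, against 1.24, 1.82 and 2.30 CPM in the poor pool. The pools did not overlap for either gene, as the naming rule required. Fgd2, an exchange factor for Cdc42, differed by log2 1.53 ± 0.21 in the CD30 pair and 1.76 ± 0.21 in the IR pair. Nfam1, an ITAM-bearing receptor, differed by 1.15 ± 0.24 in the CD30 pair and 1.00 ± 0.24 in the IR pair. Cyba, the p22phox subunit of the phagocyte oxidase, differed by 0.97 ± 0.16 in the CD30 pair and 1.22 ± 0.16 in the IR pair. Lpcat2, an acyltransferase that makes platelet-activating factor, differed by 1.00 ± 0.17 in the CD30 pair and 0.95 ± 0.17 in the IR pair.

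Rnase4 and Kcnk6 are known from macrophages too, though other cells express them. Ankrd60, which encodes a protein with ankyrin repeats, had 6.84, 4.53 and 4.10 CPM in PLX3X_CD30 and 13.5, 10.1 and 9.69 CPM in IR_BMT, against 2.63, 3.20 and 2.67 CPM in PLX1X and 2.08, 1.85 and 1.66 CPM in PLX3X_CD0. Its log2 fold change was 1.47 ± 0.19 in the CD30 pair (edgeR adjusted p = 9.19e-05) and 1.97 ± 0.19 in the IR pair (edgeR adjusted p = 3.08e-07). Rnase4, a secreted ribonuclease whose locus overlaps that of Ang, so that reads of the 2 genes may be mixed, had 6.66, 5.85 and 8.31 CPM in PLX3X_CD30 and 9.15, 9.04 and 7.10 CPM in IR_BMT, against 2.69, 2.35 and 2.13 CPM in PLX1X and 3.46, 3.06 and 2.50 CPM in PLX3X_CD0. Its change was 1.21 ± 0.16 in the CD30 pair and 1.81 ± 0.17 in the IR pair. Kcnk6, a background potassium channel, differed by log2 0.77 ± 0.20 in the CD30 pair and 1.10 ± 0.20 in the IR pair. All 11 named genes other than Kcnk6 passed in both pairs under each of 22 alternative settings. The settings refit the same data, and the pools were chosen for transcripts of this kind. For the genes other than Ankrd60, passing therefore gives no separate support. Kcnk6 passed under 17, and the 5 it failed each left out 1 library of the CD30 pair, PLX3X_CD30 replicate 1, 2 or 3 or PLX3X_CD0 replicate 2 or 3.

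Further genes were singled out after their values were seen, for their known roles in myeloid cells. Csf3r, the receptor for the granulocyte growth factor, had 1.87 to 2.94 CPM in the rich pool and 0.172 to 0.479 CPM in the poor pool. C5ar1, the receptor for complement C5a, had 0.773 to 2.14 CPM in the rich pool and 0.0736 to 0.327 CPM in the poor pool. P2ry6, a receptor for uridine diphosphate, had 1.70 to 3.09 CPM in the rich pool and 0.147 to 0.559 CPM in the poor pool. Havcr2, the checkpoint TIM-3, had 1.22 to 2.28 CPM in the rich pool and 0.0599 to 0.327 CPM in the poor pool. Irf5, a transcription factor of inflammatory macrophages, had 2.29 to 3.63 CPM in the rich pool and 0.563 to 1.20 CPM in the poor pool. All 5 had pools that did not overlap and were also higher in the crossed pairs, PLX3X_CD30 against PLX1X and IR_BMT against PLX3X_CD0. They were picked with these values known, and the pools were chosen for transcripts of this kind. Neither observation therefore gives separate support.

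The 225 genes outside the myeloid lists were split by size at a set threshold of 2-fold in each pair. At least 2-fold in each pair were 51, all of which were called again after an offset for GC content and transcript length. Under 2-fold in at least 1 pair were 174, Cyba, Lpcat2 and Tnfrsf1b among them, and the offset left 64 of the 174. Larger changes are less easily lost to an offset, so these counts do not show 2 kinds of gene. The GC content of the longest transcript had a median of 55.02% over the genes outside the lists with a value, 50.3% over the 97 on the lists, 44.2% over the 149 genes lower in both pairs and 49.3% over all genes tested. The part of GC content in the smaller changes was not tested beyond this offset.

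**Figure D3:**
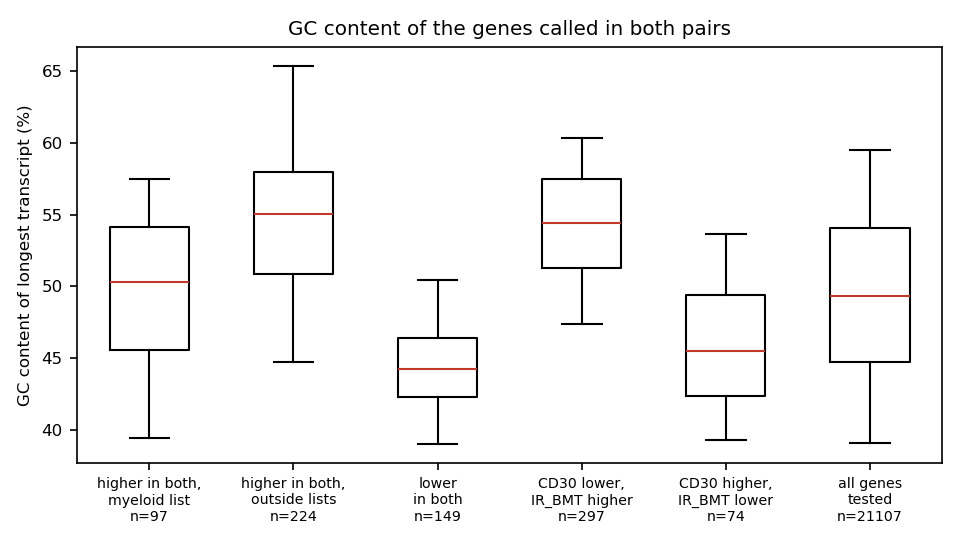
GC content of the longest annotated transcript for genes called in both pairs, by direction, and for all genes tested. Boxes show the quartiles and median, whiskers the 5th and 95th percentiles; genes lower in both have a median of 44.2% and genes higher in both outside the lists a median of 55.02%.

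The lists outside the myeloid ones changed by smaller amounts. Their counts are read against the shares over all genes tested, which were 12.4% higher and 13.3% lower in the pooled contrast, 2.84% higher and 3.62% lower in the CD30 pair, 17.1% higher and 17% lower in the IR pair, and 1.52% higher and 0.705% lower in both. Of 28 lysosome genes, 12 rose and 1 fell in the pooled contrast, and 6 rose in both pairs: Ctsz, Lgmn, Ctsh, Ctsd, Grn and Lamp1. With the length and GC offset, 6 rose and 2 fell in the pooled contrast and 3 rose in both pairs. Ctsz, a cathepsin, had 64.4, 60.8 and 61.4 CPM in PLX3X_CD30 and 69.5, 74.3 and 78.2 CPM in IR_BMT, against 46.9, 45.9 and 44 CPM in PLX1X and 50.8, 50.4 and 44.2 CPM in PLX3X_CD0. It rose by log2 0.36 ± 0.06 in the CD30 pair (edgeR adjusted p = 0.000842) and 0.70 ± 0.06 in the IR pair (edgeR adjusted p = 1.01e-07), and the difference between the pairs passed as well (edgeR adjusted p = 0.00697). Lgmn, an asparaginyl endopeptidase, had 122, 118 and 117 CPM in PLX3X_CD30 and 135, 138 and 129 CPM in IR_BMT, against 110, 107 and 101 CPM in PLX1X and 101, 102 and 93.7 CPM in PLX3X_CD0. The pools did not overlap for Ctsz and Lgmn. Ctsh, a cathepsin with aminopeptidase activity, rose by 0.68 ± 0.12 in the CD30 pair and 0.45 ± 0.12 in the IR pair (edgeR adjusted p = 0.00167 and 0.00759), and without IR_BMT replicate 1 its change in the IR pair was 0.33 with an edgeR adjusted p of 0.0526. With the NT libraries added to the fit, the calls of Ctsz, H2-T23 and Aldoc in the CD30 pair and of B2m in the IR pair were lost (edgeR adjusted p = 0.0537, 0.219, 0.126 and 0.119). Ctsd, the aspartyl cathepsin, had 203 to 220 CPM in the rich pool and 143 to 191 CPM in the poor pool. Macrophages express these lysosome genes too, and the summed macrophage levels given above moved with them. White blood cells also express the MHC class I genes and Il16 given below. The pools were chosen for macrophage transcripts, so the p-values of such genes are not independent of that choice and give no separate support. The part of macrophages in these results was not tested.

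Of 17 homeostatic astrocyte genes, 10 rose in the pooled contrast, none fell, and 3 rose in both pairs, Aldoc and the glutamate transporter Slc1a2 among them. With the length and GC offset the counts were 7, 0 and 3, and with the NT libraries in the fit 10, 0 and 0. Aldoc, the aldolase of astrocytes, had 1286, 1269 and 1363 CPM in PLX3X_CD30 and 1412, 1558 and 1531 CPM in IR_BMT, against 1132, 1056 and 1196 CPM in PLX1X and 1089, 1167 and 1128 CPM in PLX3X_CD0. It rose by log2 0.21 ± 0.05 in the CD30 pair and 0.41 ± 0.05 in the IR pair (edgeR adjusted p = 0.0144 and 5.12e-06), and lost its call in the CD30 pair without PLX3X_CD0 replicate 1 or 3 or PLX3X_CD30 replicate 3 (edgeR adjusted p = 0.0758, 0.0515 and 0.0774). Sox9, the astrocyte transcription factor, rose in the IR pair by 0.57 ± 0.06 (edgeR adjusted p = 2.12e-06) and had 0.16 ± 0.06 in the CD30 pair (edgeR adjusted p = 0.155), which became 0.26 with an edgeR adjusted p of 0.00501 without PLX3X_CD0 replicate 1. Gfap, the filament of reactive astrocytes, passed in neither pair, with 232 to 372 CPM in the rich pool and 238 to 399 CPM in the poor pool. Of 17 reactive astrocyte genes none passed in the CD30 pair.

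Of 14 MHC class I genes tested, 10 rose in the IR pair, where 17.1% of all genes rose, and 2 in the CD30 pair, where 2.84% did, and those 2, H2-T23 and B2m, rose in both. With the length and GC offset 1 rose in both, and 2 fell in the pooled contrast. H2-T23, a nonclassical class I gene, had 22.6, 20.4 and 23.2 CPM in PLX3X_CD30 and 28.7, 26.0 and 24.9 CPM in IR_BMT, against 14.2, 15.4 and 13.9 CPM in PLX1X and 19.6, 17.1 and 17.4 CPM in PLX3X_CD0. Its rise differed between the pairs (log2 -0.58 ± 0.11 for the CD30 pair minus the IR pair, edgeR adjusted p = 0.00126), and in the CD30 pair it failed without PLX3X_CD0 replicate 2 or 3 or PLX3X_CD30 replicate 1 or 3 (edgeR adjusted p = 0.122 to 0.143), with the length and GC offset (0.0955), at equal depth (0.0601) and in a fit on the 6 libraries of the pair alone (0.0592). B2m, the shared light chain, rose by 0.49 ± 0.07 in the CD30 pair and 0.21 ± 0.07 in the IR pair (edgeR adjusted p = 0.000213 and 0.0254), and its call in the IR pair was lost without PLX1X replicate 1 or 3 or IR_BMT replicate 1 (edgeR adjusted p = 0.0978, 0.121 and 0.136). H2 genes are near-identical copies, so their counts are uncertain. Of 34 interferon response genes tested, which include many antiviral effectors, 2 rose in the pooled contrast, 6 in the IR pair and none in the CD30 pair, and the counts in the pairs are near the shares over all genes.

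Of 18 myelin genes, 1 rose and 7 fell in the pooled contrast, against 12.4% and 13.3% of all genes. In the IR pair 10 fell, where 17% of all genes fell, and in the CD30 pair none did, where 3.62% of all genes fell. On this list 1 gene rose in both pairs, and none did with the length and GC offset. Mog, a glycoprotein of the outer myelin surface, had 42.5, 40.9 and 45.1 CPM in IR_BMT, against 64.4, 65 and 61.1 CPM in PLX1X, a change of log2 -0.57 ± 0.05 (edgeR adjusted p = 2.11e-07). It had 56.1, 55.4 and 57.2 CPM in PLX3X_CD30, against 54.7, 54.2 and 58.1 CPM in PLX3X_CD0, a change of 0.02 ± 0.05 (edgeR adjusted p = 0.921). Bcas1, which marks oligodendrocytes as they mature, was called in both pairs in opposite directions, 0.52 ± 0.06 in the CD30 pair and -0.48 ± 0.06 in the IR pair (edgeR adjusted p = 1.83e-05 and 4.67e-06). Mbp, myelin basic protein, behaved likewise at 0.26 ± 0.05 in the CD30 pair and -0.22 ± 0.05 in the IR pair (edgeR adjusted p = 0.00146 and 0.000920). The 10 oligodendrocyte precursor genes gave 2 higher and 1 lower in the pooled contrast. They gave 1 and 1 in the CD30 pair and 4 and 1 in the IR pair, with 1 called in opposite directions. Only Olig2, a lineage factor of oligodendrocytes and their precursors, rose in both pairs, with 25, 22.9 and 24.5 CPM in PLX3X_CD30 and 29.8, 26.6 and 32.7 CPM in IR_BMT, against 21.3, 19.4 and 19.4 CPM in PLX1X and 18.7, 19.5 and 17.5 CPM in PLX3X_CD0. Its change was 0.38 ± 0.08 in the CD30 pair and 0.57 ± 0.08 in the IR pair (edgeR adjusted p = 0.00560 and 1.90e-05).

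The pan-neuronal, ribosomal protein and respiratory chain lists each had 1 gene that rose in both pairs. Of 14 pan-neuronal genes, 7 rose and 1 fell in the pooled contrast, or 3 and 0 with the length and GC offset, and 1, the postsynaptic scaffold Dlg4, rose in both pairs, by 0.24 ± 0.05 in the CD30 pair and 0.22 ± 0.05 in the IR pair (edgeR adjusted p = 0.0122 and 0.00362). Without PLX3X_CD30 replicate 1 or 2 it failed in the CD30 pair (edgeR adjusted p = 0.0926 and 0.0782). The 12 interneuron genes gave 2 higher and 1 lower in the pooled contrast, or 0 and 0 with the offset. They gave 2 and 1 in the CD30 pair and 3 and 2 in the IR pair. Only Npy, a neuropeptide, rose in both, by 0.28 ± 0.06 in the CD30 pair and 0.23 ± 0.06 in the IR pair (edgeR adjusted p = 0.00959 and 0.00705). With the length and GC offset its change was 0.19 in the CD30 pair and 0.00 in the IR pair, and neither passed. Of 30 ribosomal protein genes 12 rose in the pooled contrast, 3 with the offset, when another 3 fell, and of 24 nuclear respiratory chain genes 9 rose and 4 fell, or 4 and 5 with the offset. Cholesterol synthesis and uptake genes, 24 in number, gave 2 higher and 7 lower in the pooled contrast, or 0 and 3 with the offset, and none alike in both pairs. Of 18 cell division genes 4 fell in the pooled contrast, or 2 with the offset, with 5 lower in the IR pair and none called in the CD30 pair. Of 16 circadian clock genes 3 were called in opposite directions in the pairs, Bhlhe41, Ciart and Clock, against 1.76% of all genes. In the IR pair 3 of the 16 rose and 10 fell, and 13 differed between the pairs, against 21.8% of all genes. Opposite calls were not particular to this list. They numbered 2 of 9 cholesterol efflux genes and 2 of 15 on each of the basement membrane, immediate early and glucocorticoid-responsive lists, with fewer or none on the other lists.

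The ligands of CSF1R were measured as well. Csf1, the macrophage growth factor, had 20.9, 22.8 and 26.0 CPM in PLX3X_CD30 and 24.0, 26.7 and 22.2 CPM in IR_BMT, against 26.4, 22.6 and 28.2 CPM in PLX1X and 26.3, 26.2 and 24.2 CPM in PLX3X_CD0. Il34, the other ligand, had 66.6, 63.7 and 62.4 CPM in PLX3X_CD30 and 71.9, 76.0 and 74.7 CPM in IR_BMT, against 67.8, 62.2 and 72.4 CPM in PLX1X and 65.6, 64.0 and 64.0 CPM in PLX3X_CD0. The pools overlapped for both, and neither passed in either pair (edgeR adjusted p of 0.456 and 0.543 for Csf1 and 0.968 and 0.0589 for Il34, CD30 pair first). With the length and GC offset Csf1 passed in the IR pair at -0.27 (edgeR adjusted p = 0.0375). Il34 passed there without PLX1X replicate 3 at 0.19 (edgeR adjusted p = 0.0145) and without IR_BMT replicate 1 at 0.16 (edgeR adjusted p = 0.0451), and with a stricter filter on low counts at 0.14 (edgeR adjusted p = 0.0375). Among the tested cytokine and chemokine genes, 2 of 9 rose in both pairs, Tgfb1 and Il16, the precursor of a T cell attractant. Il16 had 1.16, 2.58 and 2.53 CPM in PLX3X_CD30 and 2.00, 2.47 and 2.00 CPM in IR_BMT, against 1.02, 0.610 and 0.563 CPM in PLX1X and 1.14, 0.974 and 0.570 CPM in PLX3X_CD0. Its call in the CD30 pair (edgeR adjusted p = 0.0261) was lost without PLX3X_CD0 replicate 3 or PLX3X_CD30 replicate 2 or 3 (edgeR adjusted p = 0.114, 0.129 and 0.0996).

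**Figure D4:**
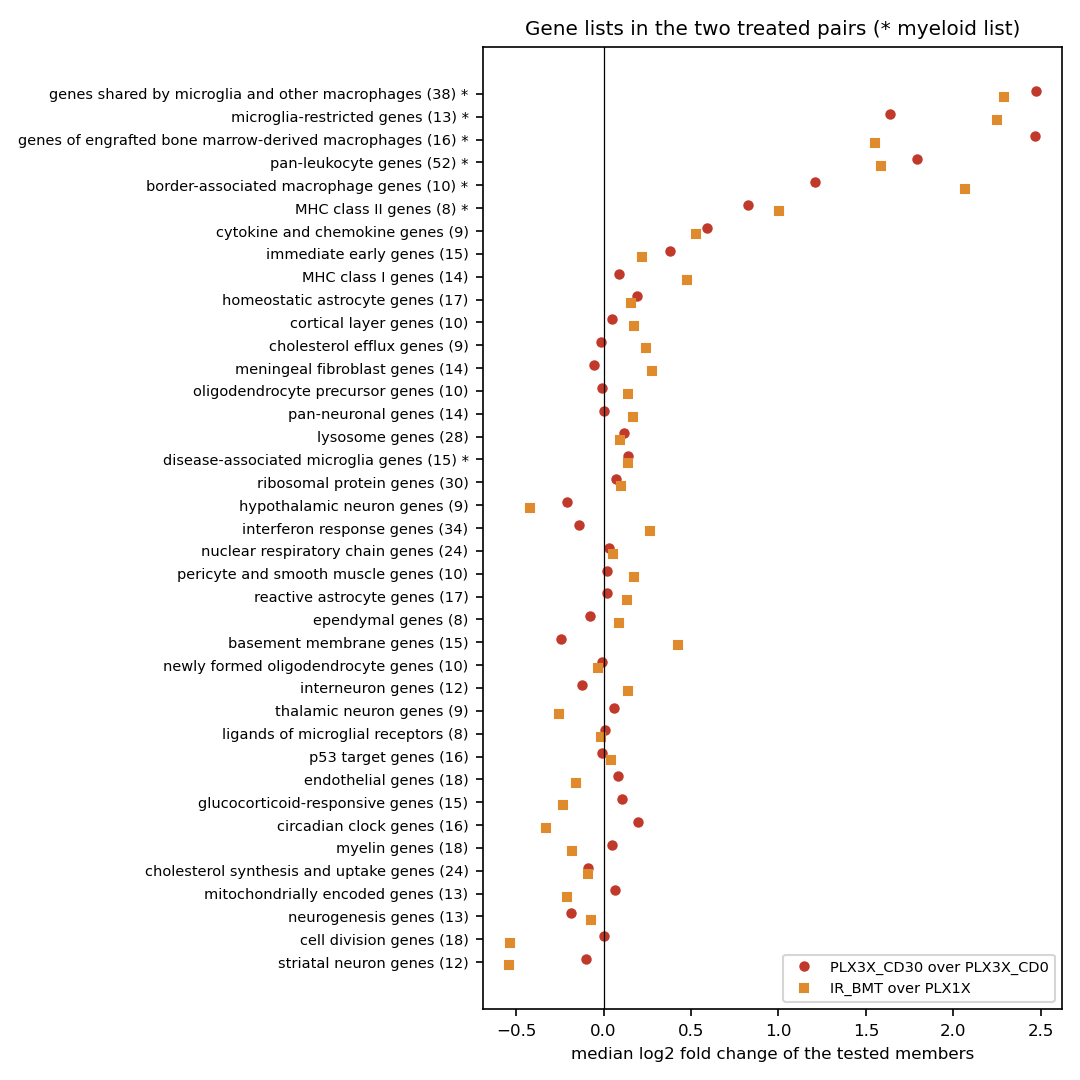
Median log2 fold change of the tested members of each gene list in the CD30 pair (circles) and the IR pair (squares), with the number of tested members in brackets and the choroid plexus list and lists of under 8 tested members left out. Of the 7 myeloid lists, 6 lie to the right of all lists that are not myeloid in both pairs, while the disease-associated microglia list lies at 0.14 in each.

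The genes lower in both pairs changed by small amounts. With the length and GC offset only 26 of the 149 were called lower in both again. The median change of the 149 in the IR pair was then -0.119, against -0.252 without the offset. Apaf1, the scaffold of the apoptosome (gene at chr10:90989311-91082770, minus strand, mm10), had 12.9, 12.4 and 12.0 CPM in PLX3X_CD30 and 10.1, 11.9 and 12.6 CPM in IR_BMT, against 14.1, 15.1 and 16.7 CPM in PLX1X and 17.0, 17.1 and 15.8 CPM in PLX3X_CD0. It fell by 0.42 ± 0.09 in the CD30 pair and by 0.41 ± 0.09 in the IR pair on the log2 scale (edgeR adjusted p = 0.00799 and 0.00217). Gpr158, a receptor of neuronal synapses (gene at chr2:21367542-21830547, plus strand, mm10), had 178, 191 and 183 CPM in PLX3X_CD30 and 175, 165 and 170 CPM in IR_BMT, against 200, 205 and 219 CPM in PLX1X and 230, 218 and 262 CPM in PLX3X_CD0. It changed by -0.36 ± 0.06 in the CD30 pair and -0.29 ± 0.06 in the IR pair (edgeR adjusted p = 0.000825 and 0.000853). Lmo7, an actin-binding protein with a LIM domain, had 78.0, 87.6 and 80.6 CPM in PLX3X_CD30 and 72.3, 68.7 and 85.5 CPM in IR_BMT, against 90, 97.3 and 99.2 CPM in PLX1X and 102, 115 and 124 CPM in PLX3X_CD0. Its change was -0.47 ± 0.08 in the CD30 pair and -0.34 ± 0.08 in the IR pair (edgeR adjusted p = 0.00382 and 0.00632). These 3 of the 12 named genes fell in both pairs under all 22 alternatives. The pools did not overlap for any of the 12, as the naming rule required.

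Another group of the lower genes was called in all but the fit with the length and GC offset. Rab30, a small GTPase of the Golgi, had 16.5, 17.9 and 16.9 CPM in PLX3X_CD30 and 17.5, 15.2 and 16.8 CPM in IR_BMT, against 22.5, 22.3 and 21.2 CPM in PLX1X and 22.1, 21.7 and 24.2 CPM in PLX3X_CD0. Its change was -0.41 ± 0.07 in each pair (edgeR adjusted p = 0.00193 and 0.000268), and -0.11 in the IR pair with the offset (edgeR adjusted p = 0.336). Ttll7, a tubulin polyglutamylase of neurons, changed by -0.30 ± 0.05 in each pair and by -0.09 in the IR pair with the offset (edgeR adjusted p = 0.311). Cep170, a centrosomal protein, changed by -0.30 ± 0.05 in the CD30 pair and -0.32 ± 0.05 in the IR pair, and by -0.14 in the IR pair with the offset (edgeR adjusted p = 0.0760). The transcripts of these 3 genes are low in GC, at 38.1% for Rab30, 41.7% for Ttll7 and 43.1% for Cep170.

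The other 6 named genes were called in both pairs under 7 to 18 of the 22 alternatives. Orc5, a subunit of the origin recognition complex, changed by -0.30 ± 0.08 in the CD30 pair and -0.63 ± 0.08 in the IR pair, with a difference between the pairs of 0.33 ± 0.11 (edgeR adjusted p = 0.0360). Mctp1, a calcium-binding membrane protein, changed by -0.30 ± 0.07 in the CD30 pair and -0.62 ± 0.07 in the IR pair. The offset also ended the calls of Mctp1, Abca8b and Htr1d in the CD30 pair (edgeR adjusted p = 0.0534, 0.0529 and 0.0638). Abca8b, a transporter of the ABC family, changed by -0.29 ± 0.08 in the CD30 pair and -0.47 ± 0.08 in the IR pair. Tnfaip8l3, a carrier of phosphoinositides, changed by -0.38 ± 0.10 in the CD30 pair and -0.29 ± 0.10 in the IR pair, where the length and GC offset gave -0.01 (edgeR adjusted p = 0.968). Nup155, a scaffold of the nuclear pore, changed by -0.31 ± 0.09 in the CD30 pair and -0.36 ± 0.09 in the IR pair, and with the offset neither passed, at -0.26 in the CD30 pair and -0.18 in the IR pair (edgeR adjusted p = 0.0982 and 0.160). Htr1d, a serotonin receptor, had the largest smaller change, -0.57 ± 0.16 in the CD30 pair and -0.51 ± 0.16 in the IR pair, and kept both calls under only 7 alternatives. By the naming rule the pools did not overlap for any of the 6. Each of the 6 lost its call in the CD30 pair or the IR pair when some single library was left out.

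**Figure D5:**
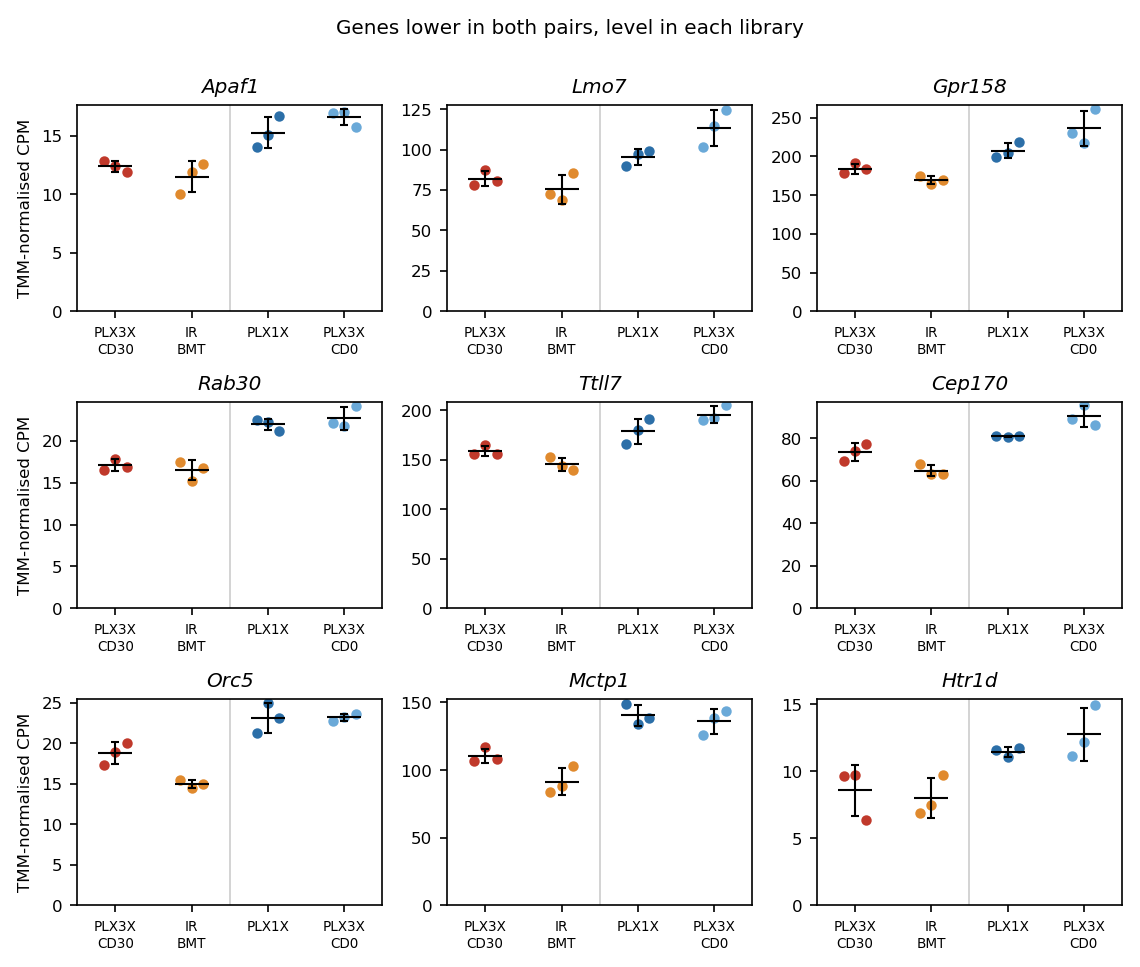
TMM-normalised CPM of 9 genes lower in both pairs, with a point per library and the mean ± SD of 3 libraries per group, on axes that start at 0. The 6 libraries of PLX3X_CD30 and IR_BMT lie below the 6 of PLX1X and PLX3X_CD0 in each panel, as the naming rule required, by small amounts.

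The crossed pairs gave a further view of the same 12 libraries. PLX3X_CD30 against PLX1X and IR_BMT against PLX3X_CD0 called 275 genes higher and 92 lower in both, and 182 of the 322 higher genes and 32 of the 149 lower genes were called in the straight and crossed pairs alike. Opposite calls numbered 9 in the crossed pairs, against 371 in the straight pairs. Requiring in addition a call with the length and GC offset, without the 2 choroid-rich libraries and at equal depth left 70 of the 97 on the myeloid lists, 71 of the 225 higher genes outside them and 10 of the 149 lower genes. The 10 were Atxn10, Gnl3l, Gprasp1, Grb10, Orc5, Pcnx4, Polr2b, Rabgap1, Shprh and Slc6a15, chosen by this filter after their values were seen. Slc6a15, a transporter of neutral amino acids in neurons, had 52.9, 60.7 and 67.7 CPM as the lowest, median and highest level in the rich pool, against 74.0, 79.1 and 81.4 CPM in the poor pool. Polr2b, a subunit of RNA polymerase II, had 84.5, 90.9 and 96.4 CPM in the rich pool, against 102, 109 and 112 CPM in the poor pool. Grb10, an adaptor of the insulin receptor, had 39.9, 41.3 and 44.9 CPM in the rich pool, against 46.5, 51.0 and 58.9 CPM in the poor pool.

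The untreated libraries, which were in none of these fits, can be placed beside the pools. In a normalization over all 15 libraries, the mean of the 3 NT libraries lay above both pool means for 202 of the 322 genes higher in both pairs, between them for 113 and below both for 7. For the 149 genes lower in both pairs the NT mean lay below both pool means for 101, between them for 44 and above both for 4. These are counts over means without a test. The same placement was not counted over all genes tested, so the counts cannot be read as particular to these genes. Of the 322, 97 stand on the lists the pools were named from.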

How the data were processed

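Total RNA of frozen forebrain was converted to cDNA, sheared and read as paired ends of 150 bases, per the labels' protocols, with a kit that does not mark strand, so overlapping genes cannot be told apart. The authors deposited raw read counts per gene, and the submitters' processing notes name DRAGEN, DESeq2 and build mm10. The handling of reads from near-identical genes is not stated there. The deposited table had 55774 rows, and 287 repeated rows were removed, which left 55487 identifiers, of which 55141 were matched to GENCODE mouse release 21 for names, length and GC content. The deposited CPM table was not used.

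Counts of 12 libraries in 4 groups of 3 were fitted with edgeR 4.0.16 in R 4.3.3 (TMM scaling, filterByExpr, a mean per group, robust quasi-likelihood F-test), and p-values were adjusted by Benjamini-Hochberg over 21138 genes, with a threshold of 0.05. The biological coefficient of variation was 9.95%. The contrasts were each pair, the pooled mean of both pairs and the difference between the pairs. CPM values are TMM-normalised and not divided by gene length. The scripts were tested on simulated data. The members, the pools and the 44 gene lists were chosen with earlier results of these data known.

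Genes were named by rule: the 12 highest rises and 12 deepest falls by the smaller of the pair changes, among genes called alike in both pairs, with a mean log2 CPM of 1 or more, pools that did not overlap and no place on the 7 lists the pools were named from. Added to these were up to 3 members of each other list with a shared call, 15 genes set by name, the 6 genes with opposite calls and the smallest p of the difference, and the extremes of the 7 lists. Exceptions are marked in the text as chosen after their values were seen. Tried as alternatives were DESeq2 1.42.0, other scaling and filters, a replicate block, leaving out each library, and, added after seeing the data, an offset for length and GC content, equal depth and leaving out the choroid-rich libraries.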

Additional observations from a re-analysis of the deposited data

Results flagged for a closer look

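The 6 genes below were called in opposite directions in the pairs. They were picked for the smallest p of the difference between the pairs, among such genes with a mean log2 CPM of 1 or more. Passing the edgeR test of that difference thus follows from the choice (adjusted p of 2.22e-08 for Kif1a and 1.00e-08 for each of the others). All 297 genes lower in the CD30 pair and higher in the IR pair passed it, as did all 74 the other way. Agrn, the proteoglycan agrin, had 115, 108 and 115 CPM in PLX3X_CD30, against 150, 149 and 148 CPM in PLX3X_CD0, and 155, 165 and 154 CPM in IR_BMT, against 97.8, 97.3 and 98.7 CPM in PLX1X. Its change in the CD30 pair minus that in the IR pair was -1.09 ± 0.06 on the log2 scale. The same difference was -0.989 ± 0.06 for Ints1, a subunit of the Integrator complex, and -0.995 ± 0.06 for Fasn, the fatty acid synthase. It was -1.10 ± 0.07 for Abca2, a lipid transporter of oligodendrocytes, -1.09 ± 0.07 for Gcn1, an activator of the kinase GCN2, and -0.801 ± 0.05 for Kif1a, an axonal kinesin. In each case PLX3X_CD30 lay below PLX3X_CD0 and IR_BMT above PLX1X in all libraries. GC content of these transcripts was 55.1% to 61.2%, against a median of 49.3% over all genes tested. With the length and GC offset the 6 genes were still called in opposite directions, with smaller changes, such as -0.29 in the CD30 pair and 0.37 in the IR pair for Agrn. By the levels above, Agrn was higher in PLX3X_CD30 than in PLX1X and higher in IR_BMT than in PLX3X_CD0. In those crossed pairs 9 genes had opposite calls, against 371 in the straight pairs. Opposite calls thus depend on which poor group each rich group is set against. The cause was not tested.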

How the results depend on the processing

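With the offset for GC content and transcript length, the number of genes called was 3121 in the pooled contrast, 4222 in the IR pair, 2022 for the difference between the pairs and 301 alike in both pairs, 223 higher and 78 lower. The 223 included 208 of the 322 genes higher in both without the offset. The 78 included only 26 of the 149 genes lower in both without it. The share of pooled calls that were higher was then 36.1%, against 48.4% without it, and in the IR pair 38.3%, against 50.2%. Changes turned round under this offset for Npy (-0.00441, edgeR adjusted p = 0.978) and Bin1 (-0.00471) in the IR pair and for Ints1 (-0.0389), Fasn (-0.0963) and Kif1a (-0.000555) in the pooled contrast. With the NT libraries in the fit, 828 genes passed in the CD30 pair and 300 alike in both pairs. A model of 6 libraries against 6 called 1830 genes. Calls in both straight and crossed pairs numbered 214, and 134 genes were at least 2-fold changed in both. Without a filter on low counts 664 genes moved alike, 58.7% of them higher, against 68.4%. Leaving out each library in turn gave 4376 to 5587 genes in the pooled contrast, 709 to 1479 in the CD30 pair, 5791 to 7486 in the IR pair, 3450 to 4895 for the difference and 261 to 514 alike. The CD30 pair had 709 calls without PLX3X_CD30 replicate 1, 744 without replicate 2 of that group and 898 without PLX3X_CD0 replicate 3, and genes alike then numbered 261, 295 and 292. Over the named genes, 6285 recomputed values were counted as unchanged. For genes with a test this means the same side of the threshold, with the direction kept unless neither fit passed. For genes without a test it means a shift smaller than the spread between replicates. Of the others, 135 lost a call, 22 gained a call, 53 values without a test moved by more than their spread and 5 turned round.

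With the replicate number as a block, 5119 genes passed in the pooled contrast, 1201 in the CD30 pair, 6974 in the IR pair, 4288 for the difference and 412 alike. Same-numbered libraries had correlations of -0.0906 to 0.25 between their deviations. The highest, 0.25, was between replicate 1 of PLX3X_CD0 and of IR_BMT, the choroid-rich libraries. With 3 libraries per group these values cannot show whether a replicate number stands for a shared batch.

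Low genes such as Ms4a7 rest on few counts, and the shallower rich pool limits their precision. Having 3 libraries per group, of unknown animal origin, limits the rest.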
